A study of Mus musculus with 3 samples.

Results

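Urothelial cells of Lpar6 knockout mice were compared directly with those of Cab39l knockout mice, with wild type as a level beside each gene. The cells were taken by a fixed rule from the 3 single-cell libraries of mouse bladder: at least 500 genes, at most 20% mitochondrial UMIs (unique molecular identifiers, each counting 1 captured RNA), at least 5000 UMIs, and at least 0.2% of UMIs in the uroplakins Upk1a, Upk1b, Upk2 and Upk3a. This left 4834 Lpar6 knockout and 5466 Cab39l knockout cells, 10300 of the 25784 barcodes of the series, beside 3176 wild-type cells. Each group was 1 library made from the pooled urothelial cells of 15 mice, released by trypsin inside the ligated bladder and separated from red cells on Ficoll. The labels give the genotypes as wild type, Lpar6 knockout and Cab39l knockout, and no age, strain, sex, deleted exon or promoter driving a deletion. Animals within a pool cannot be told apart, so differences below are between 2 libraries, none could be tested against replicates, and intervals cover counting error only.

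The urothelium is a layered epithelium in which Trp63- and Krt5-expressing basal cells lie under intermediate cells and large umbrella cells. Umbrella cells carry uroplakin plaques that seal the bladder surface against urine. LPAR6 is a receptor for lysophosphatidic acid, a signalling lipid, and is known to couple to G12/13 proteins, which act on the actin cytoskeleton. CAB39L (MO25 beta) is a scaffold that, with STRAD, holds the kinase LKB1 in its active form, and LKB1 switches on AMPK and related kinases. Both genes are of interest in bladder because the series title links their loss to the passage of cells from basal to luminal and to bladder cancer.

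The genes differ in the DNA ahead of their start sites, which is printed here for the targeted genes and for Cd59a and Hddc3, described below as low in the Cab39l knockout and as high in the Lpar6 knockout. Sequences are the 250 bases before the RefSeq start (build GRCm38.p6, plus strand, 5′ to 3′), and capitals mark CG dinucleotides, the sites of vertebrate DNA methylation. The windows are chr14:73237641-73237890 for Lpar6, chr14:59440713-59440962 and chr14:59478701-59478950 for the first and second start of Cab39l, chr2:104095551-104095800 for Cd59a and chr7:80342887-80343136 for Hddc3.
Lpar6: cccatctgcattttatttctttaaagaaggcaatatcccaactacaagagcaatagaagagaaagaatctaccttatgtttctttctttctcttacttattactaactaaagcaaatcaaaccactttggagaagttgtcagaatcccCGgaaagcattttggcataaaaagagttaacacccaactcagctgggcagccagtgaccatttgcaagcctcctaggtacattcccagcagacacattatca
Cab39l, first start: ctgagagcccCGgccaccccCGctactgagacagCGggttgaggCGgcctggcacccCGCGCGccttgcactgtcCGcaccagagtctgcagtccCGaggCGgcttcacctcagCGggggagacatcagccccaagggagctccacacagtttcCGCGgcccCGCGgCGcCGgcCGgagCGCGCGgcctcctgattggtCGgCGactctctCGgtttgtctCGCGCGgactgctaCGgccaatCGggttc
Cab39l, second start: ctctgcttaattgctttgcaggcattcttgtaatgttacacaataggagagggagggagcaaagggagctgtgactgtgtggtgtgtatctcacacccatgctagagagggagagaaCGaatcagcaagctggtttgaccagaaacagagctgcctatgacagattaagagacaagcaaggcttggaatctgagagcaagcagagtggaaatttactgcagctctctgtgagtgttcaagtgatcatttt
Cd59a: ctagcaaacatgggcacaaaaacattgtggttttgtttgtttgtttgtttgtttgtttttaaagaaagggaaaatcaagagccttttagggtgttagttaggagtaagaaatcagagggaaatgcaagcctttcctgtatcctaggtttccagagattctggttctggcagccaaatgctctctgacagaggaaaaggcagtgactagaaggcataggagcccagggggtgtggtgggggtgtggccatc
Hddc3: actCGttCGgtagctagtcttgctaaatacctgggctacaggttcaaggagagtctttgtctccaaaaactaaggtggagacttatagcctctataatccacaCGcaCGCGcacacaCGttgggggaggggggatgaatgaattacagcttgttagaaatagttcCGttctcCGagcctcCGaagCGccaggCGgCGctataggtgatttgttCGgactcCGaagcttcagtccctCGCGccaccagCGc
The first Cab39l window held 29 CG dinucleotides and was 70.8% G or C, whereas the second held 1 (46.0%), Lpar6 held 1 (39.2%), Cd59a held 0 (44.8%) and Hddc3 held 17 (52.8%). The median over 32851 RefSeq promoter windows was 6 CG dinucleotides and 52.4% G or C. RefSeq windows of 300 bases (250 before to 50 after the start) were found for 14 of the 25 genes named by rule, 18 windows in all. Both strands were searched for the AP-1 motif TGANTCA, the CRE half-site TGACG, the TATA box TATAAA and the CArG box. These were in 1, 1, 3 and 0 of the 18 windows, against 7.81%, 20.8%, 13.6% and 1.63% of all windows. Sprr2b and Svs5 had TATAAA starting 29 and 28 bases before the start, and none of the 4 motifs lay in the windows of Lpar6, Cab39l, Cd59a or Hddc3.

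Both knockout libraries were deep, with 128620816 (Lpar6) and 159977320 (Cab39l) UMIs in the cells used, median depths of 26994 and 29960.5 UMIs per cell and median mitochondrial shares of 6.27% and 6.17%. The wild-type cells were shallower, at 22252.5 UMIs and 9.02%. The uroplakins by which the cells were chosen made up a median of 1.02%, 0.947% and 0.714% of UMIs in Lpar6 knockout, Cab39l knockout and wild type. The knockout libraries shared 18 cell barcode sequences, of which 6 belonged to cells used in both. Leaving these out moved no named gene across 2-fold.

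Summed over their cells, the knockout libraries were close to each other. Levels are CPM (UMIs scaled to a total of 1000000), and differences are log2 of (CPM + 1) in the Lpar6 knockout over (CPM + 1) in the Cab39l knockout, so a negative value means a lower level in the Lpar6 knockout. Of 4570 genes with at least 50 UMIs and 20 CPM in the higher library, 4349 (95.2%) lay within 1.25-fold, and the middle 95% of log2 values ran from -0.33 to 0.31 around a median of 0.01. Only 8 genes were at least 2-fold higher in the Lpar6 knockout (0.175% of those compared) and 13 at least 2-fold lower (0.284%). At 1.5-fold the counts were 25 higher (0.547%) and 28 lower (0.613%). Against wild type, 114 of the same genes (2.49%) were at least 2-fold apart for Lpar6 knockout cells and 199 (4.35%) for Cab39l knockout cells. These comparisons share the wild-type library. Levels near, above or below wild type are on the CPM scale, on which both knockouts lay lower in general. The TMM offset against wild type (a weighted trimmed mean of log2 ratios) was -0.42 for the Lpar6 knockout and -0.41 for the Cab39l knockout, and between the knockouts it was 0.0067.

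**Figure D1:**
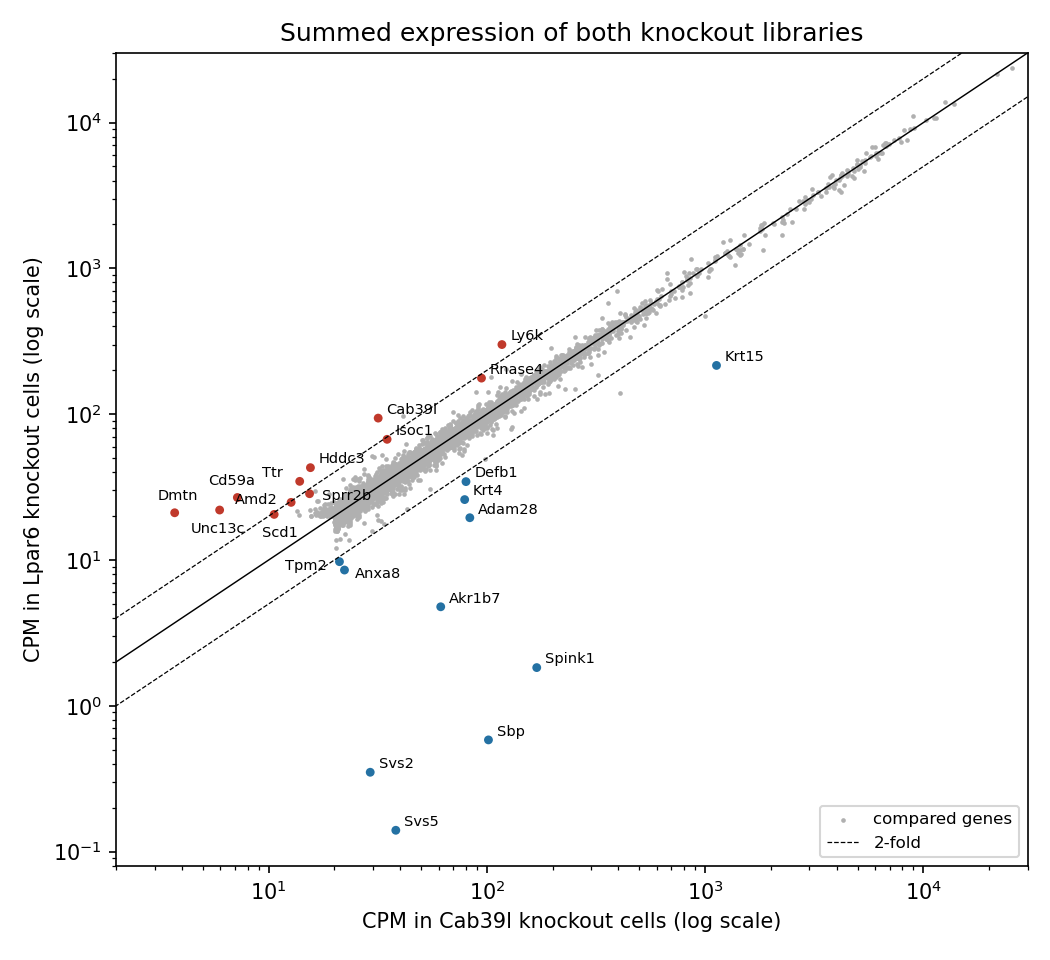
Each point is 1 of the 4570 compared genes, by its CPM in Cab39l knockout cells (x) and Lpar6 knockout cells (y), both on log scales, with equality (solid) and 2-fold (dashed) lines. Nearly all points lie inside the dashed lines, while Krt15, Adam28 and the secretory gland genes Sbp, Spink1, Svs2 and Svs5 lie below them and Dmtn, Cd59a and Unc13c above.

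The targeted genes were checked first. Lpar6 (ENSMUSG00000033446, mm10 chromosome 14, 73237895 to 73243294) had 0 UMIs in the Lpar6 knockout cells, 1938 UMIs (12.1 CPM, 11.6 to 12.7) in the Cab39l knockout and 1080 UMIs (13.8 CPM) in wild type. A count of 0 allows a level of up to 0.0233 CPM (3 counts over the library), or up to 0.0287 CPM by the exact Poisson interval. Likewise, by the limit of 3 counts, 0 of 4834 cells allows a share of up to 0.0621% of cells with a UMI. Its level lay below the 20 CPM minimum, so it is not among the counts above. Cab39l (ENSMUSG00000021981, chromosome 14, 59440972 to 59585764) stood at 31.7 CPM (30.9 to 32.6) in its own knockout, at 94.0 CPM (92.3 to 95.6) in the Lpar6 knockout and at 112 CPM in wild type, a log2 of 1.54 between the knockouts (2.96-fold, 2.86 to 3.06). The Cab39l signal was thus lower in its knockout library but not at 0, and it was found in 15.1% of those cells against 37.5% of Lpar6 knockout cells after thinning each cell to 5000 UMIs. The tags count the 3' end of a transcript, so where the deletion lies elsewhere they check nothing, and its place is not in the labels. Cab39l overlaps Cdadc1, and Lpar6 lies in Rb1, both on the opposite strand. The sources used here do not say whether counting used strand. Cdadc1 was at 16.1 and 15.6 CPM and Rb1 at 7.69 and 5.51 CPM in the Lpar6 and Cab39l knockouts.

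Nearly all measured neighbours of the targeted genes in their pathways were within 1.5-fold between the knockouts. Of 12 measured lysophosphatidic acid receptors and enzymes (at least 50 UMIs over both libraries), Lpar6 alone passed 1.5-fold. Lpar1, the most abundant receptor of the list, was 31.7 CPM in the Lpar6 knockout, 28.6 CPM in the Cab39l knockout and 45.2 CPM in wild type. Lpar3 was 11.6, 12.5 and 16.9 CPM, Lpar2 1.22, 1.46 and 1.96 CPM, and Liph, a phospholipase that makes the lipid, 27.1, 29.3 and 37.7 CPM. The gaps of these 4 genes to wild type ran from a log2 of -0.64 to -0.27. The general offset to wild type was -0.42 (Lpar6 knockout) and -0.41 (Cab39l knockout) by TMM. For the median compared gene it was smaller, -0.21 and -0.16. Plpp1, a phosphatase that degrades the lipid, had the widest gap of the rest, 16.1 CPM against 11.9 CPM (log2 0.41).

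In the LKB1 complex list, Cab39l alone of 10 measured members passed 1.5-fold. The paralog Cab39 was 70.9 CPM (Lpar6 knockout) and 69.6 CPM (Cab39l knockout), against 133 CPM in wild type. The kinase Stk11 (LKB1) was 30.7 and 34.8 CPM, its partners Strada 7.08 and 7.26 CPM and Stradb 7.22 and 7.35 CPM. Stk25, another kinase known to bind MO25 proteins, was lower in the Lpar6 knockout, at 28.2 CPM against 41.5 CPM (log2 -0.54), with 34.1 CPM in wild type. Of 25 measured AMPK and related kinase genes, 1 passed 1.5-fold, Mark1, at 0.871 CPM against 0.10001 CPM and 0.127 CPM in wild type. The AMPK catalytic subunits were level, Prkaa1 at 8.93 and 8.63 CPM and Prkaa2 at 10.2 and 11.01 CPM. Acaca, an AMPK substrate that makes malonyl-CoA, was 18.2 CPM against 14.2 CPM (log2 0.33). The list medians were -0.09 (lysophosphatidic acid), 0.07 (LKB1 complex) and -0.05 (AMPK), beside 0.00 over all 13145 genes with at least 50 UMIs. Of those 13145 genes, 0.936% were at least 1.5-fold higher in the Lpar6 knockout and 1.03% lower, which is the background for every list count here.

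The keratins held a wide gap. Of 10 measured keratins 4 were at least 1.5-fold lower in the Lpar6 knockout (Krt15, Krt4, Krt23 and Krt5) and none that much higher, with a list median of -0.20. Krt15 (ENSMUSG00000054146), which basal cells express, stood at 216 CPM (213 to 218) in the Lpar6 knockout, 1127 CPM (1122 to 1132) in the Cab39l knockout and 1099 CPM (1091 to 1106) in wild type. It was 5.22-fold higher in the Cab39l knockout than in the Lpar6 knockout (5.16 to 5.29, log2 -2.38). Krt15 in the Cab39l knockout was thus at the wild-type level, and the Lpar6 knockout stood below both. Krt4, a keratin of intermediate cells, was 25.9 CPM against 79.0 CPM, with 65.1 CPM in wild type (log2 -1.57, and -0.70 in cells of 5000 to 20000 UMIs). Krt5, the main basal keratin, was 187 CPM against 322 CPM and 299 CPM in wild type (log2 -0.78). Krt23 was 15.7 CPM against 29.6 CPM and 33.4 CPM, but level in cells with Xist UMIs (log2 0.074, against -1.13 in cells with Y-linked UMIs). The keratins of luminal cells were close between the knockouts: Krt8 was 1207 and 1287 CPM, Krt18 2928 and 2943 CPM, Krt19 1688 and 1880.3 CPM and Krt7 2089 and 2490.2 CPM. Krt20, which marks umbrella cells, lay the other way, at 42.9 CPM against 32.0 CPM and 53.4 CPM in wild type.

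Other basal genes did not share the Krt15 gap. Of 11 measured basal markers, 2 (Krt15 and Krt5) were at least 1.5-fold lower in the Lpar6 knockout and none higher. Trp63, the transcription factor that maintains basal cells, was 95.04 CPM in the Lpar6 knockout, 97.48 CPM in the Cab39l knockout and 158 CPM in wild type. The integrin Itga6 was 29.7 and 30.6 CPM, and Itgb4, its hemidesmosome partner, 11.5 and 14.5 CPM, with 52.8 and 29.0 CPM in wild type. The hyaluronan receptor Cd44 was 15.3 and 19.5 CPM against 38.5 CPM. For these genes the knockouts lay near each other and below wild type, while for Krt15 the Lpar6 knockout stood apart from both. Krt5 was less clear. In cells with Xist UMIs it was 203 CPM (Lpar6 knockout), 314 CPM (Cab39l knockout) and 257 CPM (wild type), so wild type lay between the knockouts. In cells with Y-linked UMIs it was 164, 324 and 335 CPM. With the median gap to wild type taken off each knockout, wild-type Krt5 was within 1.5-fold of both. Krt14, another basal keratin, had almost no UMIs in any stratum of the knockout cells. Of 12 umbrella markers the tight junction protein Cldn4 was the only one past 1.5-fold, at 148 CPM in the Lpar6 knockout, 253 CPM in the Cab39l knockout and 257 CPM in wild type.

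Fewer Lpar6 knockout cells were rich in Krt5, and their Krt15 was lower in each class of cells formed by Krt5 UMIs. After thinning each cell to 5000 UMIs, 45.1% of Lpar6 knockout cells (43.7 to 46.5) had no Krt5 UMI, against 29.2% of Cab39l knockout (28.0 to 30.4) and 30.7% of wild-type cells. Cells with at least 3 Krt5 UMIs made up 11.6% (10.7 to 12.5), 26.3% (25.2 to 27.5) and 23.7%. The Lpar6 knockout thus stood apart in both classes. Within cells with no Krt5 UMI, Krt15 was 117 CPM (Lpar6 knockout) and 628 CPM (Cab39l knockout), 5.36-fold apart. Within cells with 1 or 2 it was 239 and 1052 CPM (4.40-fold), and with at least 3 it was 578 and 1936 CPM (3.35-fold). Krt15 was therefore graded with Krt5 in every library, and the gap between the knockouts remained in each class. The classes do not match the libraries in Krt5 itself, which was 95.5 CPM (Lpar6 knockout) and 149 CPM (Cab39l knockout) in cells with no Krt5 UMI after thinning, 225 and 302 CPM with 1 or 2, and 446 and 590 CPM with at least 3. Among cells with at least 3 Krt5 UMIs, 50.1% of the Lpar6 knockout cells had a Krt15 UMI, against 86.7% of the Cab39l knockout and 86.7% of wild-type cells.

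Over all cells a Krt15 UMI was found in 26.8% of Lpar6 knockout cells (25.6 to 28.1), 71.6% of Cab39l knockout cells (70.4 to 72.8) and 67.5% of wild-type cells at 5000 UMIs, and in 45.8%, 90.2% and 85.0% without thinning. As a reference for free RNA, leukocyte barcodes were thinned to 1000 UMIs. These had at least 10 UMIs of leukocyte markers, under 0.2% of UMIs in uroplakins, at least 500 genes and at most 20% mitochondrial UMIs. There 2.86% of 35, 9.84% of 183 and 12.2% of 501 barcodes had a Krt15 UMI, against 13.8%, 50.0% and 46.8% of urothelial cells thinned alike. The median depths of these leukocyte barcodes were 4544, 5770 and 4016 UMIs. Urothelial shares were thus above the leukocyte reference in the Cab39l knockout and wild type. The Lpar6 knockout share was also higher, but its reference rests on only 35 barcodes and has no interval, so no difference is read there. The cap on uroplakins leaves out barcodes with much urothelial RNA, so the reference shares are no upper limit for free RNA. In Krt15-positive cells the mean was 9.42 UMIs per 5000 for Cab39l knockout and 5.51 for Lpar6 knockout cells, so both the share of cells and the level per positive cell were lower in the Lpar6 knockout.

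**Figure D2:**
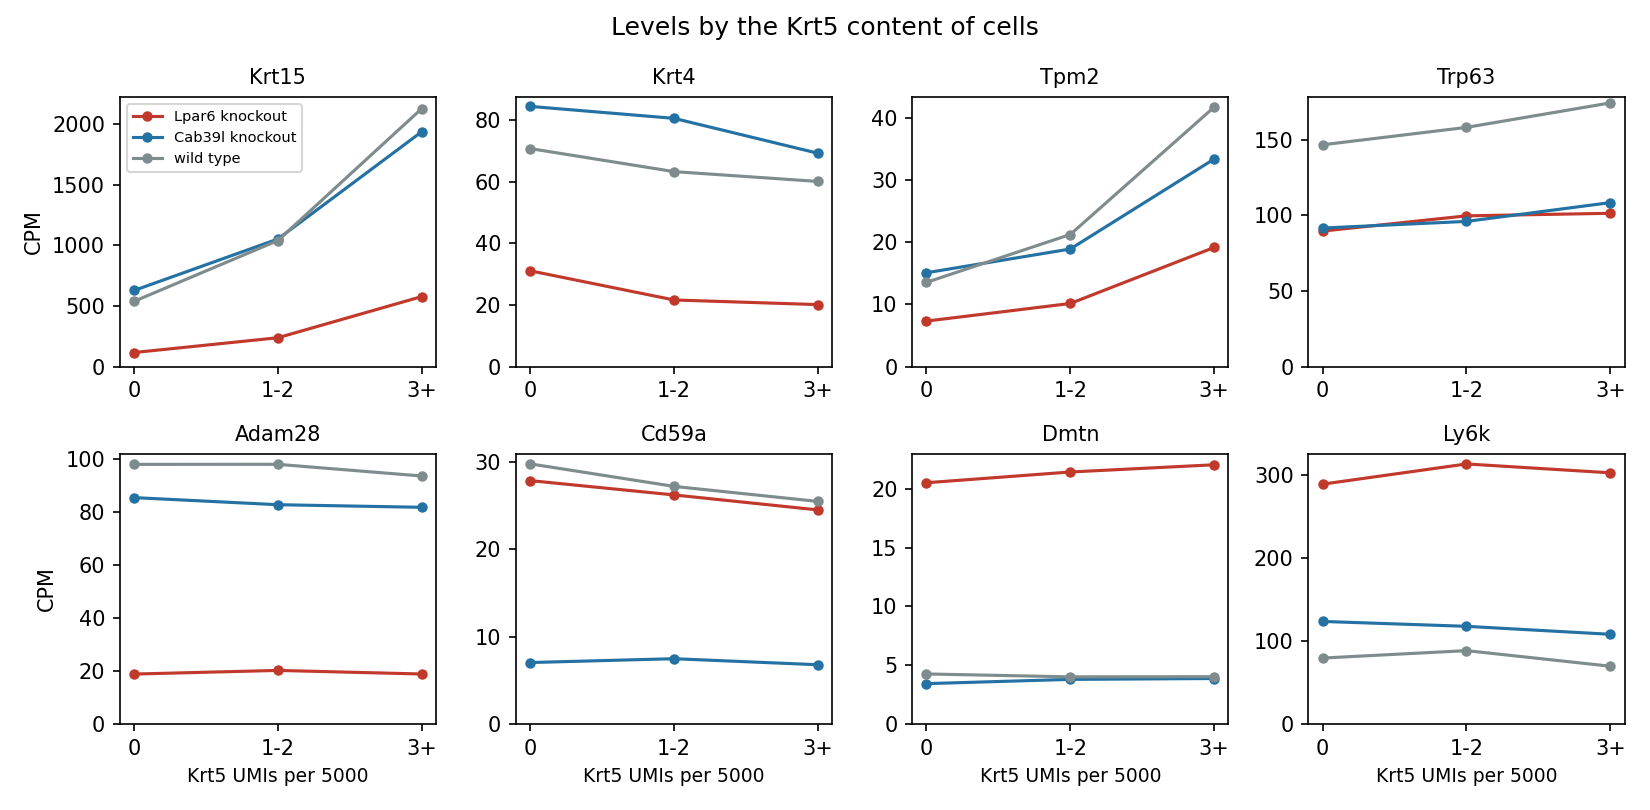
CPM (y) of 8 genes in cells with 0, 1 or 2, and 3 or more Krt5 UMIs after thinning to 5000 UMIs (x), in the Lpar6 knockout (red), Cab39l knockout (blue) and wild type (grey). Krt15 and Tpm2 climb with Krt5 in all libraries but from a lower level in the Lpar6 knockout, Trp63 has both knockouts level below wild type, and Adam28, Cd59a and Dmtn keep a nearly constant gap.

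Several genes were apart by a like amount in all Krt5 classes. Adam28 (ENSMUSG00000014725), a metalloprotease of the cell membrane, stood at 19.5 CPM (18.7 to 20.3) in the Lpar6 knockout, 83.5 CPM (82.1 to 84.9) in the Cab39l knockout and 97.2 CPM in wild type (log2 -2.04). It was 4.53-, 4.09- and 4.33-fold higher in the Cab39l knockout in cells with 0, with 1 or 2, and with at least 3 Krt5 UMIs. Dmtn (ENSMUSG00000022099), whose product dematin bundles actin, was the reverse, at 21.1 CPM (20.3 to 21.9) in the Lpar6 knockout, 3.71 CPM (3.41 to 4.02) in the Cab39l knockout and 4.10 CPM in wild type. The Dmtn log2 was 2.23, the highest of the compared genes, and it was 5.97-, 5.64- and 5.69-fold higher across the Krt5 classes. For Adam28 and Dmtn the Cab39l knockout was near wild type, and the Lpar6 knockout stood alone.

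For Cd59a (ENSMUSG00000032679) the Cab39l knockout stood alone. This inhibitor of complement was 7.18 CPM (6.77 to 7.61) there and 27.7 CPM in wild type. The Lpar6 knockout stood at 26.8 CPM (25.9 to 27.7), a log2 of 1.77 above the Cab39l knockout. It was 3.96-, 3.51- and 3.61-fold higher in the Lpar6 knockout across the Krt5 classes. Unc13c, a protein of vesicle priming, was 22.003 CPM in the Lpar6 knockout, 5.96 CPM in the Cab39l knockout and 14.3 CPM in wild type. Amd2, a copy of an enzyme of polyamine synthesis, was 24.8, 12.7 and 28.4 CPM, and its value is uncertain because near-identical copies may share its reads. Scd1, which makes monounsaturated fatty acids, was 20.5, 10.6 and 17.1 CPM. For these 4 genes the Cab39l knockout was the lowest of the 3 libraries.

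Ly6k and Cd59a were the members of the Ly6 family apart, 2 of 11 measured, both at least 2-fold higher in the Lpar6 knockout. Ly6k (ENSMUSG00000044678), a small protein anchored to the membrane by a lipid, was 300.2 CPM (297.2 to 303.2) in the Lpar6 knockout, 117 CPM (115 to 119) in the Cab39l knockout and 81.4 CPM in wild type (log2 1.35, but 0.27 in cells with Y-linked UMIs). Its share of cells was 48.2% (Lpar6 knockout) and 26.4% (Cab39l knockout) at 5000 UMIs. Ly6d, the most abundant of the family, was 6748 and 5829 CPM, and Psca 1559 and 1298 CPM, neither past 1.5-fold. Lypd3 was 111 CPM against 147 CPM and Ly6e 57.3 CPM against 74.5 CPM. The family thus had members on both sides, with a median of 0.09.

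Further ranked genes were high in the Lpar6 knockout. Hddc3 (ENSMUSG00000030532), a phosphatase of NADPH, was 43.0 CPM (41.8 to 44.1) there, 15.5 CPM (14.9 to 16.2) in the Cab39l knockout and 14.5 CPM in wild type (log2 1.41). It overlaps Man2a2 on the opposite strand, at 2.89 and 4.73 CPM. Isoc1, an isochorismatase-domain protein, was 67.2, 34.9 and 38.3 CPM. Ttr, the carrier of thyroxine and retinol-binding protein, was 34.6, 13.9 and 20.9 CPM. Rnase4, a secreted ribonuclease, was 177, 94.4 and 100.4 CPM, and shares its strand and locus with Ang, which was level at 99.98 and 108 CPM. Sprr2b, a precursor of the cornified envelope, was 28.5, 15.4 and 24.9 CPM, and its close copies Sprr2a1 (11.4 and 6.21 CPM) and Sprr2a2 (7.65 and 4.18 CPM) lay the same way. With these, 3 of 7 measured cornified envelope genes were at least 1.5-fold higher, while Sprr1a, the most abundant, was 1683 CPM against 2256 CPM. The Sprr2 copies share sequence, so their values are uncertain.

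Further genes were lower in the Lpar6 knockout. The membrane-binding annexin Anxa8 was 8.53 CPM in the Lpar6 knockout, 22.2 CPM in the Cab39l knockout and 26.3 CPM in wild type. The tropomyosin Tpm2, which lines actin filaments, was 9.73, 21.1 and 22.9 CPM, and stayed past 2-fold in 17 of 23 alternative settings. Defb1, an antimicrobial peptide made by epithelia, was 34.5 CPM (33.5 to 35.5), 80.1 CPM (78.8 to 81.5) and 54.3 CPM. Anxa8 and Tpm2 had the Cab39l knockout near wild type, and Defb1 had wild type between the knockouts.

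**Figure D3:**
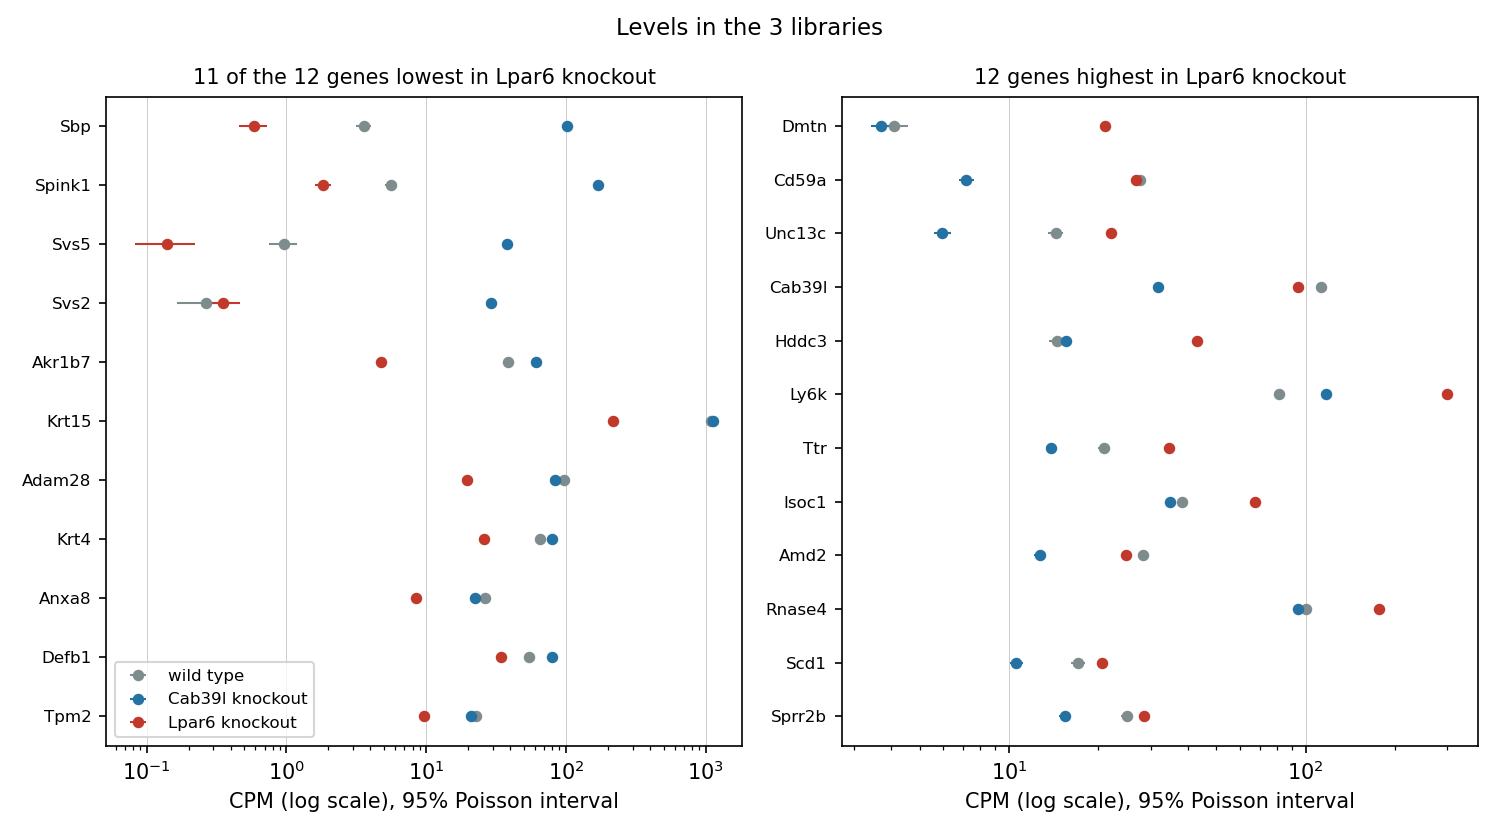
CPM on a log scale (x) of 11 of the 12 lowest and of the 12 highest ranked genes in the Lpar6 knockout (red), the Cab39l knockout (blue) and wild type (grey), with exact 95% Poisson intervals, mostly narrower than the points. Wild type coincides with the Cab39l knockout for Krt15, Adam28, Tpm2 and Dmtn, and with the Lpar6 knockout for Cd59a.

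The lowest log2 values belonged to secretory proteins of male accessory glands. Sbp, the spermine-binding protein of prostate, was 0.583 CPM in the Lpar6 knockout, 101.6 CPM in the Cab39l knockout and 3.58 CPM in wild type (log2 -6.02). Spink1, a trypsin inhibitor, was 1.83, 169 and 5.59 CPM, and the seminal vesicle proteins Svs5 and Svs2 were 0.140, 38.2 and 0.956 CPM, and 0.350, 29.2 and 0.268 CPM. The 10 genes of the prostate and seminal vesicle list summed to 2.92, 342 and 12.1 CPM, with 4 of them at 0 in the Lpar6 knockout, 2 in the Cab39l knockout and none in wild type. These UMIs sat in few cells. The 1% of Cab39l knockout cells with the most UMIs of the gene held 89.3% of Sbp and 77.8% of Spink1 UMIs.

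Barcodes with at least 1% of UMIs in Sbp, Spink1, Svs2, Svs4, Svs5 and Pbsn numbered 15 in the Lpar6 knockout, 224 in the Cab39l knockout and 110 in wild type, of which 0, 15 and 0 met the urothelial rule. Without those 15 cells the log2 moved to -3.19 for Sbp and -3.92 for Spink1, and the count of genes at least 2-fold lower fell from 13 to 10. Sbp (13.5 CPM in the Cab39l knockout), Svs5 (9.49 CPM) and Svs2 (7.47 CPM) then lay under the 20 CPM minimum and were no longer compared. Low counts were also spread widely, since 83.4% of Cab39l knockout cells held at least 1 such UMI, against 7.24% and 22.2%. At 1000 UMIs, 4.56% of Cab39l knockout urothelial cells had a Spink1 UMI, against 10.9% of leukocyte barcodes in the same library. The rule for leukocyte barcodes did not leave out gland cells, so they are no measure of free gland RNA. No expression is read from the Spink1 share, and the part of free RNA in it was not tested. Akr1b7, an aldose reductase relative abundant in vas deferens, was 4.77, 61.4 and 38.7 CPM, with 1.98% of Cab39l knockout cells against 31.7% of its leukocyte barcodes at that depth.

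Markers of other cells were low but unequal. Leukocyte markers summed to 3.48, 20.05 and 27.99 CPM in Lpar6 knockout, Cab39l knockout and wild type. Cd52 alone held 0.661, 13.9 and 9.06 CPM of these sums, so the gap between the knockouts was mostly that of 1 gene. T or NK cell markers summed to 0.474, 1.53 and 6.92 CPM, and epididymis or vas deferens genes to 0.373, 20.6 and 1.30 CPM. B cell markers summed to 6.18, 7.18 and 153 CPM. Haemoglobins and Alas2 summed to 149, 66.5 and 309 CPM, and Hbb-bs, one of the 8 genes at least 2-fold higher in the Lpar6 knockout, was 96.9, 41.1 and 197 CPM. Their part in the other differences was not tested. Leaving out 18 and 58 knockout cells with over 0.1% of UMIs in such markers gave Krt15, Adam28, Dmtn and Cd59a on the same side of 2-fold. The counts moved from 13 to 9 lower genes and from 8 to 7 higher ones, since Sbp, Svs5, Svs2, Akr1b7 (19.9 CPM in the Cab39l knockout) and Hbb-bs (7.56 CPM in the Lpar6 knockout) fell under 20 CPM.

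Gene lists were counted for members at least 1.5-fold apart. In 15 of the 40 lists of pathways and cell states no measured member was 1.5-fold apart, and in 25 at least 1 was, with list medians from -0.20 to 0.11. None of the 38 measured nuclear oxidative phosphorylation genes, 18 proteasome subunits, 24 Rab genes, 21 cholesterol synthesis genes, 17 NRF2 targets, 19 luminal transcription factors or 6 uroplakins was 1.5-fold apart. Over all 13145 genes with at least 50 UMIs, 0.936% were that much higher in the Lpar6 knockout and 1.03% lower. A list of these sizes with no gene apart is thus near the background. Upk1a, Upk1b, Upk2 and Upk3a were used to choose the cells, so their levels are not independent of that choice. Upk3a, the most abundant uroplakin, was 6175 CPM in the Lpar6 knockout, 5467 CPM in the Cab39l knockout and 4745 CPM in wild type. Upk2 was 539, 565 and 849 CPM, so both knockouts lay below wild type by a like amount.

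Other lists held genes apart on both sides. Of 13 measured epithelial defence genes, 2 were at least 1.5-fold higher (Rnase4 and Reg3g) and 4 lower. The 4 were Defb1, Lyz2 (3.45 and 9.17 CPM), the protease inhibitor Slpi (1.53 and 4.15 CPM) and the trefoil peptide Tff1 (2.22 and 4.91 CPM). Lyz2 is also a macrophage gene. Of 22 measured P450 and aldehyde enzymes, Cyp1a1, which oxidises aromatic pollutants, was 9.35 CPM in the Lpar6 knockout against 3.36 CPM, with 3.99 CPM in wild type, and Cyp1b1 5.37 against 3.22 CPM. Cyp2f2 (4.72 and 11.6 CPM) and Aldh3a1 (78.5 and 129 CPM) lay the other way. Fatty acid genes on the PPAR list were higher in 2 of 24, Scd1 and the lipid carrier Fabp4 (143 and 88.9 CPM). The conjugating enzymes Gstp1 (48.9 and 97.7 CPM) and Gstp2 (6.99 and 15.3 CPM) are near-identical copies, and both were lower, with wild type at the Lpar6 knockout level. Of 6 measured MHC class II genes, H2-Eb1 (52.2 and 33.0 CPM) and H2-DMb1 (7.63 and 4.39 CPM) were at least 1.5-fold higher and the invariant chain Cd74 (2.177 and 4.501 CPM) lower. MHC class I had 1 of 20 members past 1.5-fold, H2-Q7 (51.4 and 29.7 CPM), which also has close copies.

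Chromosome 14, which carries both targeted genes 13.8 Mb apart, held more of the gaps than other autosomes. At least 1.5-fold apart were 11 of its 150 compared genes (7.33%), against 39 of 4279 (0.911%) on the other autosomes, and at 2-fold 5 against 16. Lower in the Lpar6 knockout were 6, among them Adam28, Anxa8, Gm10076, Anxa11 and Oit1. Higher were Dmtn, Cab39l, Rnase4, Fam25c and AC160336.1. The counts thus include the targeted gene Cab39l itself, and the gene models Gm10076 and AC160336.1, which the ranking left out. Dmtn lies 2.64 Mb and Adam28 4.63 Mb from Lpar6, and Rnase4 lies 8.35 Mb from Cab39l, whereas Oit1 lies 64.9 Mb from Lpar6. The 11 genes were thus spread over the chromosome and lay on both sides. For 7 of them, among them Adam28, Dmtn, Anxa8 and Rnase4, the Cab39l knockout was within 1.5-fold of wild type and the Lpar6 knockout was not. Whether position next to a targeted gene bears on these values was not tested.

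**Figure D4:**
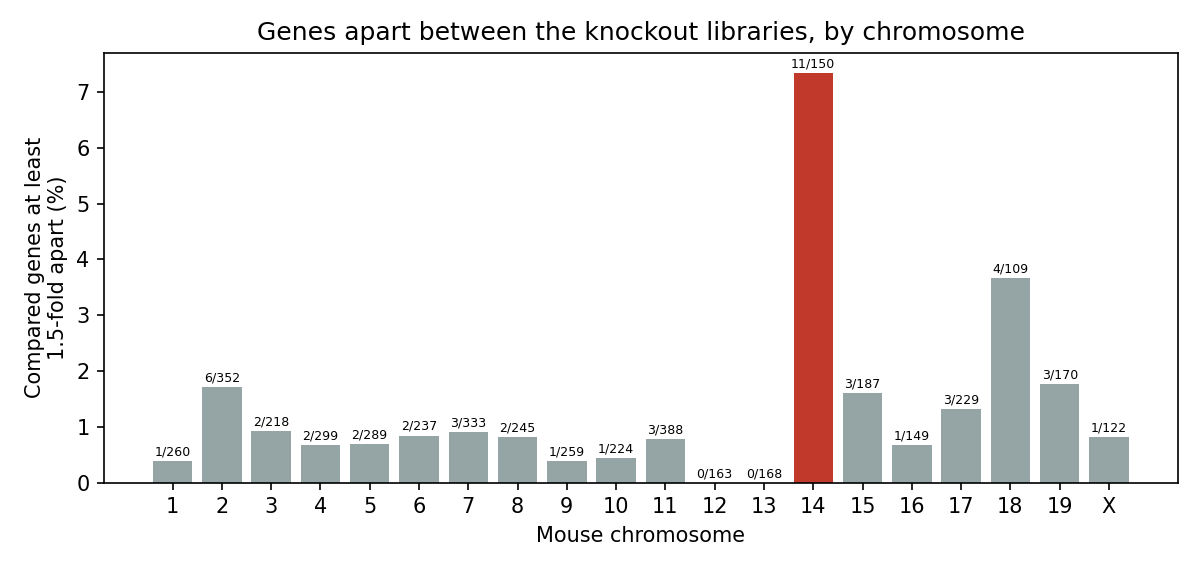
Percent of compared genes at least 1.5-fold apart between the knockouts (y) for each chromosome (x), with the counts above each bar. Chromosome 14 (red) stands at 7.33%, against 0.911% over the other autosomes together.

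Set beside wild type, the genes at least 2-fold apart lay on both sides. Of the 8 genes at least 2-fold higher in the Lpar6 knockout, wild type was within 1.5-fold of the Cab39l knockout only for 4 (Dmtn, Hddc3, Ly6k and Ttr), of the Lpar6 knockout only for 3 (Cd59a, Unc13c and Cab39l) and of neither for 1. Of the 13 lower genes, it was near the Cab39l knockout only for 6 (Krt15, Adam28, Krt4, Anxa8, Defb1 and Tpm2), near the Lpar6 knockout only for 3 (Svs2 and Gm10076 among them) and near neither for 4. The median compared gene lay at a log2 of -0.21 (Lpar6) and -0.16 (Cab39l) against wild type. With those medians taken off, the counts were 3, 2 and 3 for the higher and 5, 4 and 4 for the lower genes. With the TMM offsets taken off they were 3, 2 and 3, and 4, 4 and 5.

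Cells with Xist UMIs, the RNA of the inactive X chromosome, and cells with Y-linked UMIs were both present in every library, in unequal shares. Cells with at least 3 Xist UMIs and no Y-linked UMI made up 56.0% of Lpar6 knockout, 33.6% of Cab39l knockout and 43.9% of wild-type cells. Cells with no Xist UMI and at least 1 Y-linked UMI made up 29.4%, 49.6% and 38.5%. The knockouts were therefore compared again within each kind of cell, a split chosen after seeing the data. Of 4429 autosomal genes compared, 26 were at least 2-fold apart in Xist-positive and 18 in Y-positive cells, 15 of them in both and in the same direction.

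Krt15, Adam28, Dmtn and Cd59a were apart in both kinds of cell. Krt15 was 251 CPM (Lpar6 knockout) and 1065 CPM (Cab39l knockout) among Xist-positive cells, and 165 and 1149 CPM among Y-positive cells. Adam28 was 20.97 and 87.2 CPM, then 18.1 and 81.7 CPM. Dmtn was 21.5 and 4.09 CPM, then 20.02 and 3.49 CPM. Cd59a was 27.5 and 10.1 CPM, then 26.5 and 5.30 CPM. The gap of Adam28 and Dmtn was of like size in each kind of cell, while that of Krt15 (log2 -2.08 and -2.79) and Cd59a (1.36 and 2.13) was wider in Y-positive cells.

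Ly6k was not alike in both. In the Lpar6 knockout it was 424 CPM in Xist-positive and 111 CPM in Y-positive cells, in the Cab39l knockout 163 and 91.97 CPM, and in wild type 83.4 and 84.2 CPM. The log2 between the knockouts was 1.37 in Xist-positive and 0.27 in Y-positive cells, so Ly6k was past 2-fold in the first only. Hddc3 was 55.1 against 24.6 CPM in the Lpar6 knockout, and between 14.04 and 16.46 CPM in either kind of Cab39l knockout and wild-type cell, which gave log2 values of 1.68 and 0.70. Rnase4 (211 and 126 CPM) and Isoc1 (80.8 and 47.2 CPM) showed the same order, and Anxa8 was lower in Xist-positive cells, at 6.01 CPM against 12.5 CPM. In wild type these 5 genes were nearly level between the kinds of cell, Rnase4 at 104 and 96.2 CPM and Anxa8 at 25.4 and 27.1 CPM. Since each pool mixes mice, sex and other differences between the animals of a pool cannot be told apart.

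**Figure D5:**
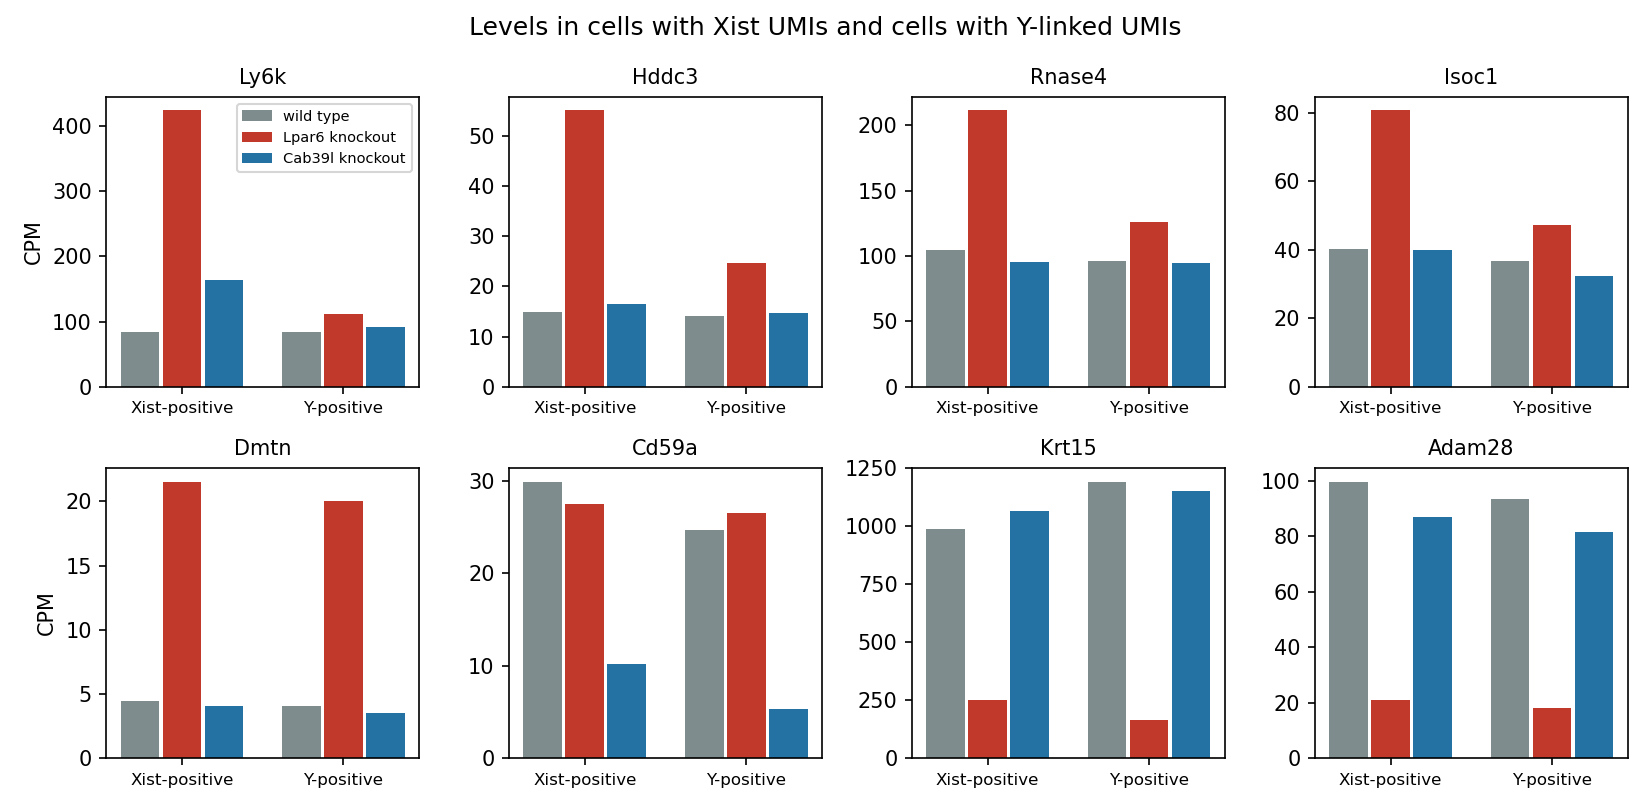
CPM (y) of 8 genes in Xist-positive and Y-positive cells (x) of wild type (grey), the Lpar6 knockout (red) and the Cab39l knockout (blue), 1 library each and no error bars. Ly6k, Hddc3, Rnase4 and Isoc1 in the Lpar6 knockout are highest in Xist-positive cells, while Dmtn, Cd59a, Krt15 and Adam28 show a gap in both.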

How the data were processed

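Bladder urothelial cells of 3 genotypes were profiled by 10x single-cell RNA sequencing, with 1 library of 15 pooled mice for each. The authors deposited unnormalised UMI counts for every gene and barcode, made with Cell Ranger 3.0.2 on mm10 per the submitters' processing notes. The sources used here do not give the annotation release. Cells were kept by the rule in the report, raw counts were summed per library and scaled to CPM, and log2 ratios used a pseudocount of 1 CPM. Ratio intervals are exact conditional binomial and level intervals exact Poisson, at 95%. Genes compared had at least 50 UMIs over both knockouts and 20 CPM in the higher one.

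Genes named by rule were Lpar6 and Cab39l, the 12 highest and 12 lowest log2 ratios (without predicted, sex-linked, haemoglobin, mitochondrial and ribosomal genes), and leading members of the 54 gene lists. Some genes within these rules are not reported here. The compared cells and the lists were chosen with earlier results of these data known. Positions come from GENCODE vM21, in which 30934 of 31053 identifiers (99.6%) were found. Doublets were kept. Scrublet's own threshold in scanpy 1.11.5 marked 0 cells and so had not worked, and an alternative left out the 6% of cells with the highest scores. The other alternatives covered the cell filters, scaling, pseudocount, low counts, depth, Krt5 classes, other cells' markers, transcript length and fold threshold. Chosen after seeing the data were a 5 CPM minimum, leaving out cells with at least 1% of UMIs in gland genes, the Xist and Y-linked split, and wild-type positions recentred by the median or TMM offset. The calculation was run on simulated Poisson counts with set fold changes. These held no variation between mice, cells or libraries, so they check the arithmetic and not the calls. Python 3.11.15, numpy 2.4.6, scipy 1.17.1, pandas 2.3.3 and matplotlib 3.10.9 were used.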

Additional observations from a re-analysis of the deposited data

Results flagged for a closer look

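A few autosomal genes had opposite signs between the knockouts in cells with Xist UMIs and in cells with Y-linked UMIs, with log2 values at least 1 apart. This difference was not tested, since each kind of cell comes from 1 library per group. The peptide-processing enzyme Cpe had a log2 of 0.43 in Xist-positive and -0.63 in Y-positive cells. The immediate early transcription factor Egr1 had -0.29 and 0.86. The keratin Krt23 had 0.074 and -1.13, from 15.7 and 14.9 CPM in Xist-positive and 17.2 and 38.8 CPM in Y-positive cells of the Lpar6 and Cab39l knockouts.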

How the results depend on the processing

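All 25 named genes kept their direction under every alternative run. The count of genes higher in the Lpar6 knockout moved from 8 to 42 without the low-count filter, 25 at a 5 CPM minimum, 3 at 200 UMIs and 50 CPM, 13 in cells of 5000 to 20000 UMIs, 4 in Y-positive cells, 25 at 1.5-fold and 3 at 3-fold. The count of lower genes moved from 13 to 49 without the low-count filter, 35 at a 5 CPM minimum, 28 at 1.5-fold and 7 at 3-fold. The Cab39l log2 moved from 1.54 to 1.59 (at most 10% mitochondrial UMIs), 1.43 (pseudocount 5 CPM), 1.48 (cells thinned), 1.39 (5000 to 20000 UMIs), 1.44 (Xist-positive cells) and 1.61 (Y-positive cells). The median log2 over compared genes moved from 0.0076 to 0.00079 (TMM scaling), -0.00099 (no filter), 0.013 (200 UMIs and 50 CPM), 0.035 (5000 to 20000 UMIs), 0.029 (at least 3 Krt5 UMIs), -0.0087 (no Krt5 UMI), 0 (length trend taken off), -0.0021 (5 CPM) and -0.020 (Xist-positive cells). Apart from the changed filters and thresholds, the cause was not tested. Of 529 recomputed values of named genes 151 moved beyond their counting interval. Of 920 list medians 9 moved beyond an interval taken from the spread of the list's members. That interval is wide for short lists, so these counts cannot be set side by side. Past 2-fold no longer were Tpm2 in 6 settings (lowest size -0.60, Xist-positive cells), Krt4 (-0.70) and Defb1 (-0.98) in cells of 5000 to 20000 UMIs, Ttr (0.97) in Xist-positive cells, and Ly6k (0.27), Hddc3 (0.70) and Anxa8 (-0.73) in Y-positive cells. By transcript length, median log2 values were 0.033 up to 1000 bases, -0.04 at 2000 to 3000 bases and 0.09 above 7000 bases. No paired analysis was possible because each group is 1 library.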

Other observations

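Below the 20 CPM minimum, 3954 genes stood between 5 and 20 CPM in the higher knockout. Of these, 12 were at least 2-fold higher and 19 lower in the Lpar6 knockout, with the targeted gene Lpar6 itself among the 19. Genes of this range were looked at after seeing the data. Sncg, gamma-synuclein, was 13.1 CPM in the Lpar6 knockout, 0.313 CPM in the Cab39l knockout and 0.255 CPM in wild type, from 1690, 50 and 20 UMIs. Zfp990, a zinc finger gene, was 7.63, 0.0813 and 0.115 CPM. Lrmda, a gene of melanocyte differentiation, was 15.5, 2.86 and 3.38 CPM, and the calcium-binding Necab1 9.13, 2.34 and 3.11 CPM. In these 4 genes the Cab39l knockout was at the wild-type level and the Lpar6 knockout stood above. Sncg and Lrmda lie on chromosome 14, which carries both targeted genes, and Zfp990 and Necab1 on chromosome 4. Lypd6, a Ly6-domain gene, was 15.6, 4.51 and 7.76 CPM, and Padi2, which converts arginine to citrulline, 14.7, 5.39 and 11.2 CPM.

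Among the lower genes, Adamdec1, a metalloprotease gene beside Adam28, was 0.505 CPM in the Lpar6 knockout, 10.2 CPM in the Cab39l knockout and 14.2 CPM in wild type. Pdlim2, an adaptor of the actin cytoskeleton on the same chromosome, was 1.20, 12.03 and 8.96 CPM. The potassium channel Kcnn4 was 4.11, 13.2 and 12.2 CPM and the ubiquitin ligase Trim13 5.38, 16.1 and 18.9 CPM. For these 4 genes wild type stood with the Cab39l knockout. Adamdec1, Pdlim2 and Trim13 lie on chromosome 14 and Kcnn4 on chromosome 7. Atf3, a stress transcription factor, was 3.19, 8.79 and 25.9 CPM, so both knockouts lay below wild type. Crisp1 (0.0389, 10.4 and 1.15 CPM), Pate4 (0.0544, 9.87 and 0.0382 CPM) and Tgm4 (0.0311, 6.67 and 0.726 CPM) are genes of the male reproductive tract, and they lay the same way as Sbp and Spink1.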
